A study of Arabidopsis thaliana with 20 samples.

Results

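The levels of 10 nucleolar genes were followed in Arabidopsis thaliana inflorescences, chosen by name from a deposited table of 37336 gene identifiers. They encode the nucleolin NUC1 (AT1G48920), the fibrillarins FIB1 (AT5G52470) and FIB2 (AT4G25630), the box C/D scaffold proteins NOP56 (AT1G56110), NOP5-1 (AT5G27120) and NOP58 (AT3G05060), the pseudouridine synthase CBF5 (AT3G57150), and 3 plant-specific histone deacetylases of the HD2 family, HDA3 (HD2A, AT3G44750), HD2B (AT5G22650) and HDT3 (HD2C, AT5G03740). RefSeq names NUC1 as NUC-L1 and CBF5 as NAP57. All 10 were among the 20223 genes that passed a filter of at least 1 RPKM, a read count divided by gene length and library size, in at least 3 libraries. The genes were selected with their measured values in view, so their own levels are given as a description, with no test, and no count among them is read as evidence.

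The altered plants belonged to 4 lines with altered DVL/RTFL genes, which encode small peptides that change organ shape when overexpressed, and each line was set against the Col-0 wild type. The dvl1-1D line is a dominant gain-of-function allele of DVL1, and the 35S:DVL8 line, labelled 35S.DVL8.2, expresses DVL8 from the broadly active 35S promoter, a viral promoter from the cauliflower mosaic virus. Both quintuple mutants carried the 4 mutations dvl8, dvl11, rtfl11 and dvl19, to which dvl1 was added in the dvl1 quintuple and rtfl9 in the rtfl9 quintuple. Each group had 3 libraries, described as independent biological replicates of whole inflorescences whose oldest flower was at anthesis, and the labels give no plant age. The replicate numbers were 1, 2 and 3 in dvl1-1D, 35S:DVL8 and wild type, 2, 3 and 4 in the dvl1 quintuple, and 1, 2 and 4 in the rtfl9 quintuple. A further 5 samples, 1 per group, were left out by the authors as outliers and were not analysed here. The libraries held between 22471893 and 36589877 reads assigned to genes. In the rtfl9 quintuple, replicate 4 had 61 tested genes over 2-fold away from both other libraries of its group, and in 35S:DVL8 replicate 2 had 87, against 5 to 39 in the remaining libraries.

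The raised DVL genes matched their labels. DVL1 lay between 525 and 612 RPKM in dvl1-1D and at 0 in the 3 wild-type libraries, and DVL8 lay between 152 and 173 RPKM in 35S:DVL8 and at 0.0386 to 0.0616 RPKM in wild type. Among the genes mutated in the quintuples, DVL1, RTFL9 and DVL19 were listed at 0 in wild type too, so RNA levels could not check those alleles. DVL11, which had reads, lay at 1.84 to 2.24 RPKM in the dvl1 quintuple and 0.992 to 1.46 RPKM in the rtfl9 quintuple, against 1.74 to 2.49 RPKM in wild type, so that the dvl1 quintuple overlapped wild type and the rtfl9 quintuple lay below it. RTFL11 averaged 0.332 RPKM in the dvl1 quintuple and 0.372 RPKM in the rtfl9 quintuple, against 0.290 RPKM in wild type, so neither mean was below wild type. DVL8 reads numbered 2 in the quintuple with dvl1 and 1 in that with rtfl9, against 5 in wild type, too few for a check. Each group is represented by a single line or allele combination. Whole inflorescences mix many cell types, and fewer cells of a type and less RNA per cell cannot be told apart in such samples.

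The nucleolus is where RNA polymerase I transcribes ribosomal RNA genes and where the transcript is modified, cut and assembled with proteins into ribosomal subunits. Box C/D ribonucleoproteins methylate the RNA at sites chosen by a guide RNA, with fibrillarin as the enzyme and NOP56 and NOP58 as the scaffold, and box H/ACA ribonucleoproteins, with CBF5 as the enzyme, convert uridine to pseudouridine. Nucleolin binds ribosomal RNA genes and their transcripts, and HD2 proteins are histone deacetylases found in the nucleolus, of which HDA3 is known to act in silencing ribosomal RNA genes. Genes for ribosome production are highly expressed in growing tissue, and many plant members share 2 short promoter elements, the telo box and the site II element.

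Both elements were searched by letters, on both strands, from 250 bases before to 50 bases after the annotated gene start in the TAIR10.1 RefSeq assembly. The telo box was AAACCCTA and the site II element TGGGCC or TGGGCT, and overlapping matches of one element were counted once. The telo box was found at 7 of the 10 genes (70.0%), the site II element at 7 (70.0%) and both at 6. Of all 27443 protein-coding genes, 6.22% had the telo box, 21.7% the site II element and 2.2% both in the same window. Among 76 other genes of ribosome production, listed further on, the shares were 38.2%, 56.6% and 23.7%. NUC1, FIB1, NOP56, NOP5-1, NOP58 and CBF5 had both, FIB2 had a telo box only, HDT3 had site II elements only, and HDA3 and HD2B had neither. Sequence before the start is shown 5′ to 3′ for 5 genes that differ in these matches, with telo box and site II letters in capitals.
FIB1 (plus strand, chr5:21293897-21294146), with a telo box and 2 site II matches upstream: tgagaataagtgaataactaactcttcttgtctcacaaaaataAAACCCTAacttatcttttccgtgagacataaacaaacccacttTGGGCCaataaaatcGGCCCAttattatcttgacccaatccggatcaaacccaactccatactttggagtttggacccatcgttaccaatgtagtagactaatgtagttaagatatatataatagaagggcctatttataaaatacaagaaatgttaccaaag
FIB2 (plus strand, chr4:13073840-13074089), with no match upstream: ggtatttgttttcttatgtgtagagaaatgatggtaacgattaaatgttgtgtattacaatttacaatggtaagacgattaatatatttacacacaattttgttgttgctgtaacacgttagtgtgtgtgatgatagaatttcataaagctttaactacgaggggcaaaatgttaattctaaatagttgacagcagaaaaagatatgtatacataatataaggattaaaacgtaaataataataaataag
NOP56 (minus strand, chr1:20986953-20987102), with 3 site II matches and a telo box in the 150 bases before the start: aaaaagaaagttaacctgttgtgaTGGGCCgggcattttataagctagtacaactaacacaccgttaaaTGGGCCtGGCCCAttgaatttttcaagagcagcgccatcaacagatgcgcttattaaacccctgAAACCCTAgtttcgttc
CBF5 (minus strand, chr3:21156076-21156325), with 2 site II matches upstream: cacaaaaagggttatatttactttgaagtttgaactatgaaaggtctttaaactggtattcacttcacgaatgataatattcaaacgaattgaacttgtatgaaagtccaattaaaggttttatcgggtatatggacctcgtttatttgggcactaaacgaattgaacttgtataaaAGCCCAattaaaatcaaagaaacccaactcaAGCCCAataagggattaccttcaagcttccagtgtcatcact
HDT3 (plus strand, chr5:981609-981858), with 3 site II matches upstream: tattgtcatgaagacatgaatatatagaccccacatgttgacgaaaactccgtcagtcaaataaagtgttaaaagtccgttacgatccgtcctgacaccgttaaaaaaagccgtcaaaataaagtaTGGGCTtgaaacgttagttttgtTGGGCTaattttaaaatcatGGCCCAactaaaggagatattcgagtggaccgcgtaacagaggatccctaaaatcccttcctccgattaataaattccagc
The remaining telo boxes of these genes lay after the start, at base 4 in FIB1, base 25 in FIB2, bases 9 and 19 in CBF5 and base 32 in NOP56, counted from 1 at the first base of the gene. A match of letters is a description and not a binding site.

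**Figure D1:**
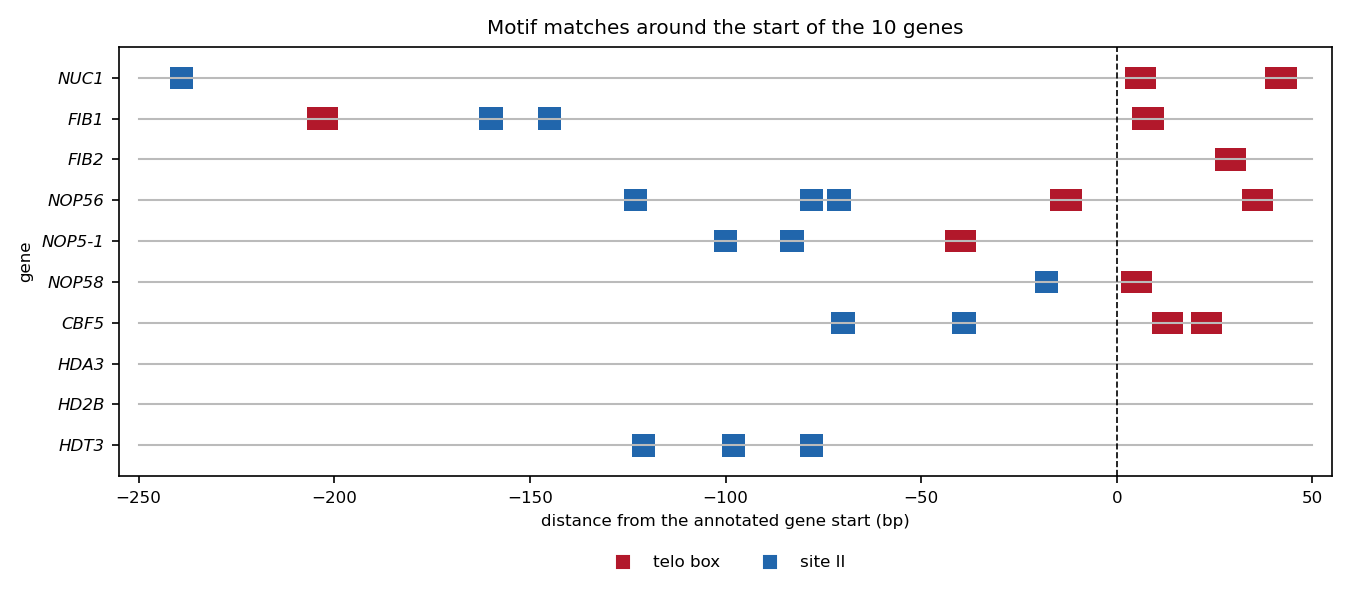
Positions of telo box (red) and site II (blue) letters, on either strand, around the annotated start of the 10 genes; the horizontal axis is distance from the start in bp and each row is a gene. In 6 rows both colours appear, FIB2 only red, HDT3 only blue, and HDA3 and HD2B none.

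In wild type all 10 genes were well expressed, between 67.7 ± 1.18 RPKM for HDT3 and 366 ± 15.2 RPKM for NUC1 (SD, n = 3). NUC1 ranked 189th among the 20223 genes by wild-type level and HDT3 1636th, so the set lay in the top 8.09% of tested genes. In RPKM, a scale per gene length, the wild-type order was NUC1, HD2B, FIB1, NOP56, CBF5, FIB2, NOP58, HDA3, NOP5-1 and HDT3. The libraries of HD2B and FIB1 overlapped, as did those of each neighbouring pair from NOP58 down to HDT3, and the other neighbours were apart. In dvl1-1D, FIB1 stood above HD2B, and HDT3 stood above HDA3 and NOP5-1 with no overlap, while its libraries overlapped those of NOP58 and FIB2.

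All 10 genes were lower in dvl1-1D than in wild type, with no overlap between the libraries of any gene. The differences in log2(RPKM + 1) ran between -0.74 for HDA3 and -0.17 for HDT3, with a median of -0.51, against a median of 0.02 over all tested genes. All 10 passed the limma threshold for lower genes (adjusted p under 0.05 over all tested genes), which 14.0% of tested genes passed, and 20.9% of tested genes had dvl1-1D libraries all below wild type. Since the genes were chosen with this contrast known, nothing is read from that count.

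NUC1, the main nucleolin of Arabidopsis, had 245, 248 and 235 RPKM in dvl1-1D, against 383, 356 and 358 RPKM in wild type. In dvl1-1D its mean fell by 33.6% relative to wild type (log2 difference -0.59 ± 0.06, SE). The gene lies on chromosome 1 at 18098081 to 18101732 (TAIR10.1). The NUC1 libraries of the other lines held 370.4, 369 and 389 RPKM in 35S:DVL8, 388, 401 and 406 RPKM in the dvl1 quintuple and 460.2, 413 and 382 RPKM in the rtfl9 quintuple. The dvl1-1D libraries were the lowest group, all dvl1 quintuple libraries were above wild type, and the 35S:DVL8 and rtfl9 quintuple libraries overlapped wild type.

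The fibrillarin genes differed from each other in the size of the drop. FIB1 had 172, 175 and 166 RPKM in dvl1-1D, against 216, 209 and 214 RPKM in wild type, a log2 difference of -0.32 ± 0.05. FIB2 had 52.1, 57.4 and 50.5 RPKM in dvl1-1D, against 88.7, 88.7 and 91.7 RPKM in wild type, a log2 difference of -0.74 ± 0.07. The FIB1 to FIB2 ratio was 3.04 to 3.29 in the dvl1-1D libraries and 2.04 to 2.35 over the libraries of the other 3 lines, against 2.33 to 2.43 in wild type. Their aligned coding sequences were 84.8% identical, with no identical run over 44 bases. Sequence outside the coding parts was not compared, and whether reads of both genes were mixed up was not tested. Each fibrillarin gene also hosts a small nucleolar RNA gene on the same strand, U60.1F in FIB1 and U60.2F in FIB2, and the sources used here do not say how reads there were counted. FIB1 lies on chromosome 5 at 21294147 to 21296819 and FIB2 on chromosome 4 at 13074090 to 13076432.

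The C/D scaffold genes, NOP56 on chromosome 1 at 20984273 to 20986952, NOP5-1 on chromosome 5 at 9540861 to 9544065 and NOP58 on chromosome 3 at 1412867 to 1416056, were all lower. NOP56 had 114, 114 and 106 RPKM in dvl1-1D, against 172, 155 and 155 RPKM in wild type (log2 difference -0.52 ± 0.06). NOP5-1 and NOP58, named without a symbol in RefSeq, are close copies with 82.5% identical coding sequence. NOP5-1 had 47.4, 45.7 and 44.9 RPKM in dvl1-1D, against 76.6, 68.3 and 66.8 RPKM in wild type (-0.60 ± 0.06), and NOP58 had 60.1, 60.5 and 58.8 RPKM in dvl1-1D, against 86.4, 82.4 and 83.1 RPKM in wild type (-0.48 ± 0.05). The NOP56 to NOP58 ratio lay between 1.81 and 1.91 in dvl1-1D and between 1.86 and 1.99 in wild type, so the libraries overlapped. The NOP58 to NOP5-1 ratio lay between 1.27 and 1.32 in dvl1-1D, against 1.13 to 1.25 in wild type, with no overlap, so NOP5-1 fell by more than its close copy. That ratio was 1.14 to 1.271 over the libraries of the other 3 lines. Its highest 35S:DVL8 library thus overlapped the lowest of dvl1-1D, at 1.268, and the difference between the drops of both genes was not tested. Summed over both fibrillarins and the 3 scaffold genes, the box C/D proteins held 427 to 452 RPKM in dvl1-1D, against 604 to 639 RPKM in wild type. CBF5, the H/ACA enzyme encoded on chromosome 3 at 21153815 to 21156075, had 75.1, 76.5 and 75.0 RPKM in dvl1-1D, against 111, 106 and 107 RPKM in wild type (-0.51 ± 0.05). Across box C/D and box H/ACA enzymes the dvl1-1D libraries were below every wild-type library.

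The HD2 genes, HDA3 on chromosome 3 at 16297656 to 16299876, HD2B on chromosome 5 at 7533946 to 7536496 and HDT3 on chromosome 5 at 981859 to 984289, were unequal. HDA3 had 47.8, 46.1 and 47.3 RPKM in dvl1-1D, against 85.8, 73.9 and 79.3 RPKM in wild type, so that its mean fell by 40.9% (log2 difference -0.74 ± 0.07). HD2B had 163, 162 and 161 RPKM in dvl1-1D, against 243, 214 and 217 RPKM in wild type (-0.47 ± 0.05). HDT3 had 61.7, 61.9 and 57.2 RPKM in dvl1-1D, against 68.8, 66.5 and 67.8 RPKM in wild type, the smallest drop among the 10 genes (-0.17 ± 0.04). HDA3 was below HDT3 in every dvl1-1D library, with a ratio of 0.745 to 0.828. It was above HDT3 in every other library, with a ratio of 1.06 to 1.32 in the other 3 lines and 1.11 to 1.25 in wild type. HDA3 overlaps AT3G44740 by 315 bases on the opposite strand, which had 5.15 RPKM in dvl1-1D and 6.24 RPKM in wild type, and HD2B, NUC1 and NOP56 overlap opposite-strand genes that were at or near 0. The counting ignored strand, so reads in these overlaps cannot be assigned, and the HDA3 values are uncertain there.

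**Figure D2:**
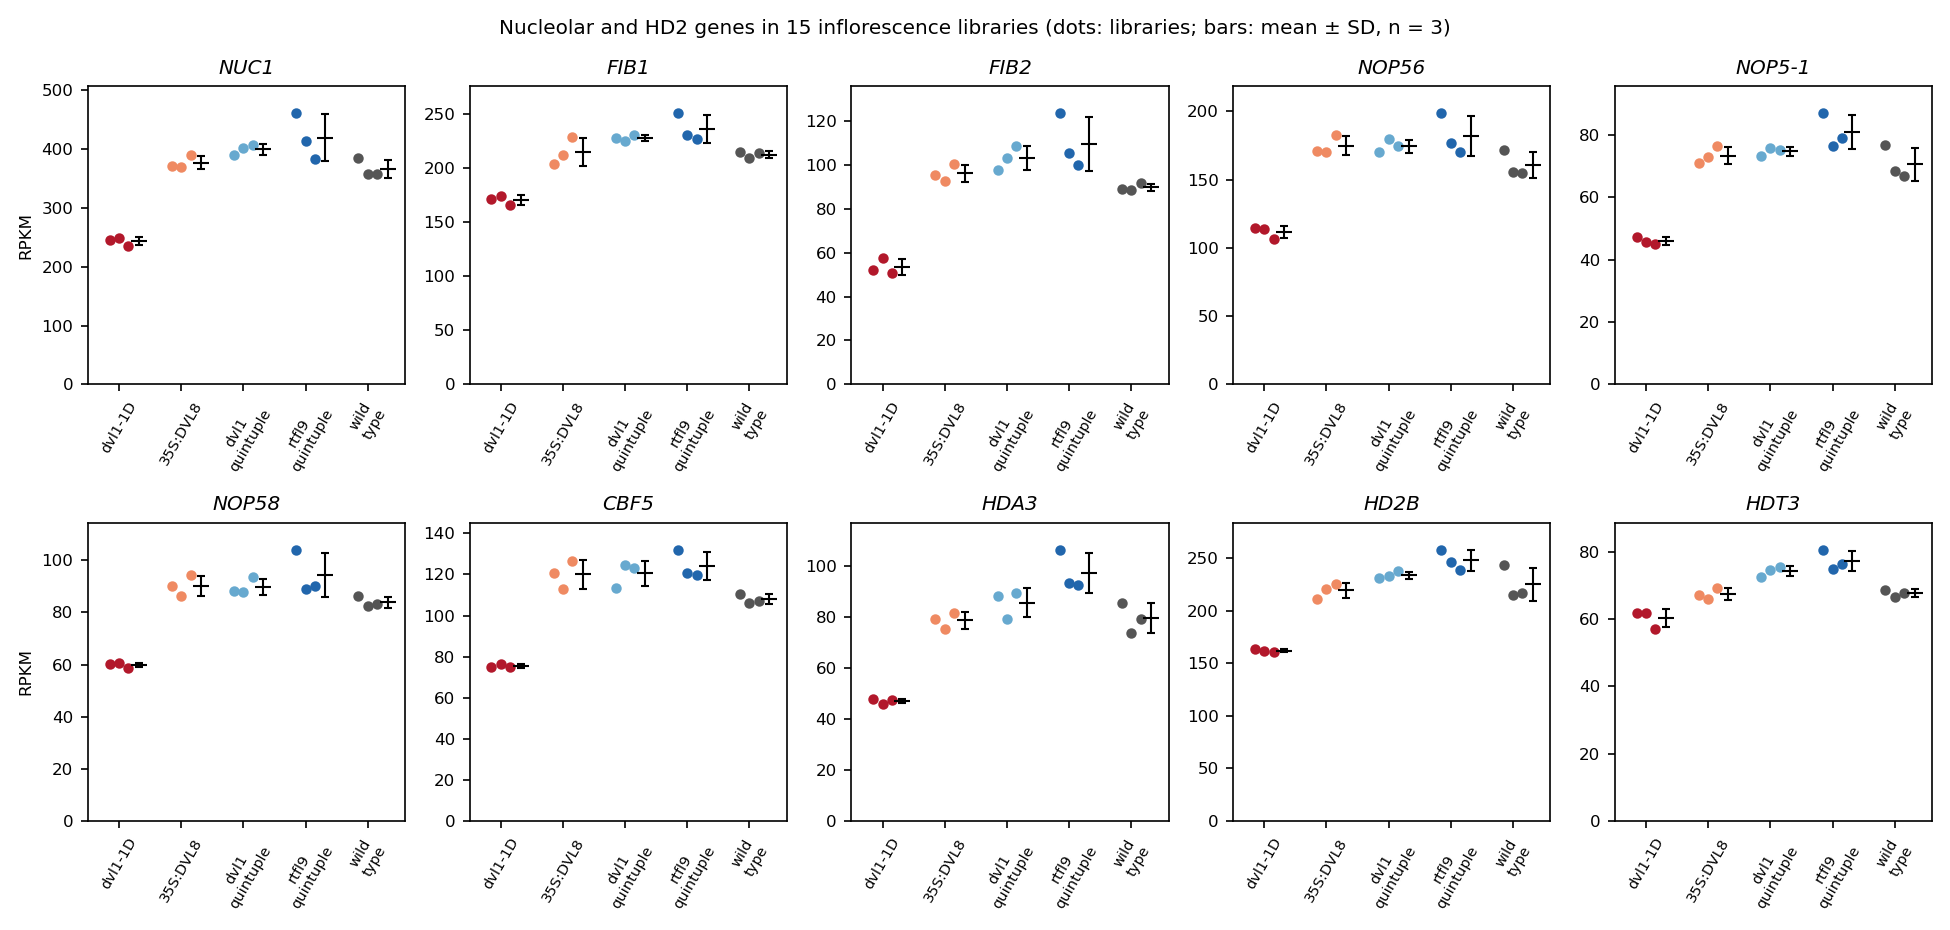
RPKM of each gene in the 15 libraries, with 1 panel per gene and its own vertical axis from 0; dots are libraries and black bars the mean ± SD of 3 libraries. The dvl1-1D dots lie below all wild-type dots in all 10 panels, from a wide gap in FIB2 and HDA3 to a narrow one in HDT3.

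In the second overexpression line the 10 genes were near their wild-type levels. Against wild type, 35S:DVL8 had log2 differences between -0.04 for HD2B and 0.15 for CBF5, with a median of 0.05 against -0.004 over all tested genes. CBF5, FIB2 and NOP58 had all 3 35S:DVL8 libraries above wild type, and 7.03% of tested genes did. The other 7 overlapped wild type. None of the 10 passed limma in 35S:DVL8 against wild type, where 0.138% of all tested genes did. Set directly against 35S:DVL8, dvl1-1D was lower at all 10 genes, with log2 differences between -0.84 for FIB2 and -0.16 for HDT3 and no overlap of libraries, which held for 18.4% of tested genes. These comparisons share the dvl1-1D or wild-type libraries and are not independent of each other.

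In the quintuple mutants all 10 genes lay on the high side of wild type, by small amounts. In the rtfl9 quintuple the log2 differences ran between 0.14 for HD2B and 0.29 for HDA3, with a median of 0.19 against 0.02 over all tested genes. HDA3 had 107, 93.4 and 92.5 RPKM in the rtfl9 quintuple, against 85.8, 73.9 and 79.3 RPKM in wild type, and HDT3 had 80.7, 74.9 and 76.5 RPKM, against 68.8, 66.5 and 67.8 RPKM in wild type. At 6 genes the rtfl9 quintuple libraries were all above wild type, which held for 12.0% of tested genes, and at NUC1, NOP56, NOP5-1 and HD2B they overlapped. Replicate 1 of the rtfl9 quintuple had the highest value of all 15 libraries at all 10 genes, with a summed level of 1802 RPKM, against 1627 and 1576 RPKM in replicates 2 and 4. Without it the HDA3 difference was 0.22, in place of 0.29, and the HDT3 difference 0.16, in place of 0.19. Of the 10 genes 2 passed the limma threshold for higher genes in the rtfl9 quintuple, as 0.321% of all tested genes did. None passed with any 1 library of either group left out, and 0 to 8 did over the other alternatives.

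In the dvl1 quintuple the differences from wild type ran between 0.06 for HD2B and 0.20 for FIB2, with a median of 0.11 against 0.01 over all tested genes. At 6 genes, NUC1, FIB1, FIB2, NOP58, CBF5 and HDT3, the dvl1 quintuple libraries were all above wild type, which held for 9.3% of tested genes. None of the 10 passed limma in the dvl1 quintuple, where 0.0297% of all tested genes did, and none did under any alternative. FIB2 had 97.3, 103 and 109 RPKM in the dvl1 quintuple and 123, 105 and 99.8 RPKM in the rtfl9 quintuple, against 88.7, 88.7 and 91.7 RPKM in wild type. Between the mutants, the dvl1 quintuple was lower at all 10 genes by a median of 0.07 in log2. Its libraries were all below the rtfl9 quintuple at HDA3, HD2B and NOP5-1, as at 5.78% of tested genes. Between the mutants none of the 10 passed limma, where 0.0148% of all tested genes did. Both mutants were compared with the same wild-type libraries.

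The core small nucleolar RNP proteins and HD2B were close to or above wild type in the 3 lines other than dvl1-1D. FIB1 had 204, 212 and 229 RPKM in 35S:DVL8, 228, 225 and 231 RPKM in the dvl1 quintuple and 251, 231 and 227 RPKM in the rtfl9 quintuple, against 216, 209 and 214 RPKM in wild type. CBF5 had 121, 113 and 127 RPKM in 35S:DVL8, 114, 125 and 123 RPKM in the dvl1 quintuple and 132, 120.5 and 119.9 RPKM in the rtfl9 quintuple, against 111, 106 and 107 RPKM in wild type. All 9 CBF5 libraries of these lines were above wild type, while for FIB1 the 35S:DVL8 libraries overlapped it. All 9 FIB2 libraries were above wild type too, barely so in 35S:DVL8, whose lowest held 92.7 RPKM against at most 91.65 RPKM in wild type. NOP56 lay between 170.0 and 199 RPKM over the 9 libraries of these lines, against 155 to 172 RPKM in wild type. NOP5-1 lay between 70.8 and 86.9 RPKM over them, against 66.8 to 76.6 RPKM in wild type. NOP58, its near relative, lay between 86.48 and 104 RPKM, against 82.4 to 86.36 RPKM in wild type, so the libraries were barely apart. How many of all tested genes had all 9 libraries above wild type was not counted, so nothing is read from CBF5, FIB2 and NOP58 here. HD2B spanned 211 to 258 RPKM over the same libraries, against 214 to 243 RPKM in wild type, an overlap in all 3 lines.

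**Figure D3:**
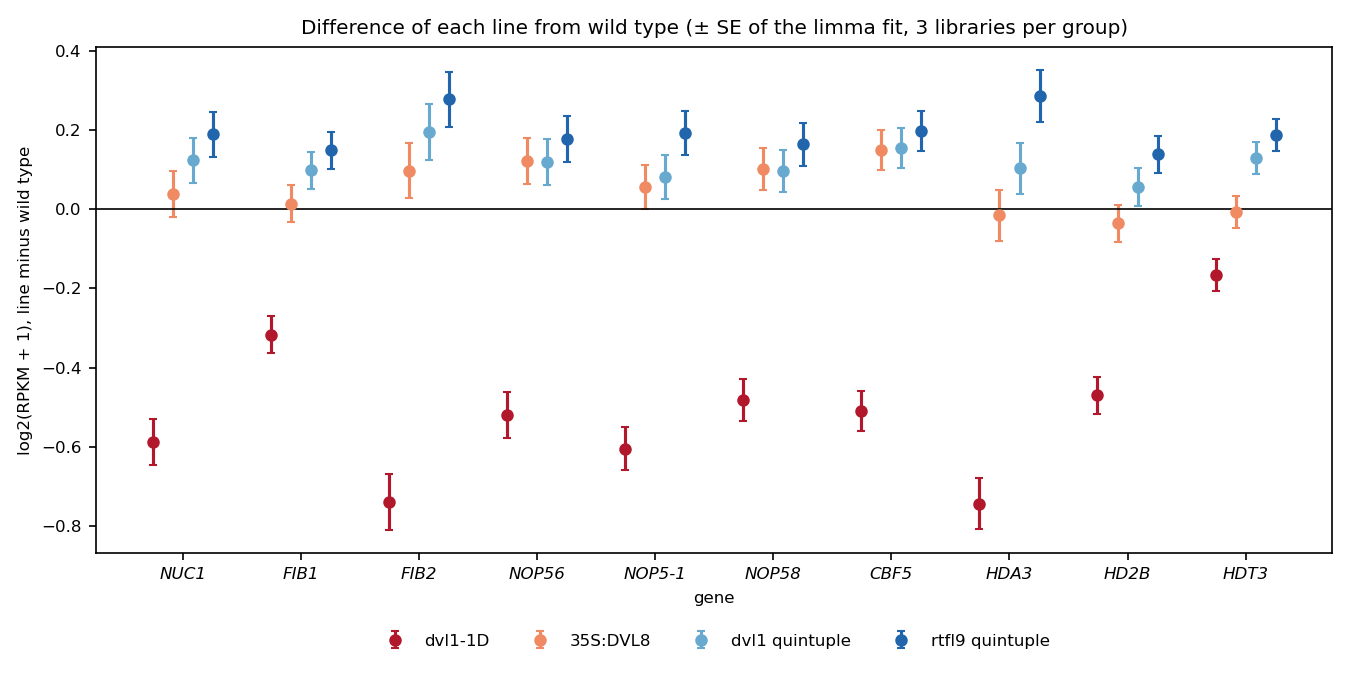
Difference from wild type in log2(RPKM + 1) for each gene (horizontal axis) in 4 lines, as points with the SE of the limma fit. The dvl1-1D points lie between -0.74 and -0.17, the 35S:DVL8 points near 0, and all quintuple points above 0, up to 0.29.

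Other genes of ribosome production, outside the 10, were tested in the same fit from lists of paralogs, snoRNP proteins, RNA polymerase I, small and large subunit factors, and ribosomal RNA decay. Of 76 such genes 75 were tested, and 65 were lower and 1 higher in dvl1-1D than in wild type (limma, adjusted p under 0.05), where 14.0% of all tested genes were lower and 16.7% higher. The median log2 difference of the 75 was -0.32, against 0.02 over all tested genes. The 65 became 54 to 68 over all alternatives tried, and the higher call was lost in some of them. These lists, and those further on, were chosen with earlier results of these data known. Their counts and p-values are therefore not independent support.

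Among the closest relatives, HDT4 (HD2D), the fourth HD2 gene, fell most. HDT4 averaged 30.5 ± 1.04 RPKM in dvl1-1D and 56.2 ± 4.76 RPKM in wild type (SD, n = 3 each), a log2 difference of -0.86 ± 0.07 with a limma adjusted p of 5.14e-06. AT3G12860, whose coding sequence was 83.2% identical to NOP56, averaged 7.98 ± 1.27 RPKM in dvl1-1D and 10.8 ± 1.47 RPKM in wild type (-0.40 ± 0.11, limma adjusted p 0.0119). NUC2, the second nucleolin, averaged 1.90 RPKM in dvl1-1D and 1.61 RPKM in wild type and did not pass the test (limma adjusted p 0.533). FIB3 was under the filter.

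Of 9 snoRNP genes, 7 were lower in dvl1-1D. They included NOP10, a partner of CBF5 (-0.45 ± 0.07, limma adjusted p 0.000458), the H/ACA assembly factor NAF1 (-0.32 ± 0.05, adjusted p 0.0007) and YAO, which acts in early processing (-0.40 ± 0.06, adjusted p 0.000414). All 8 genes of RNA polymerase I and its initiation were lower, led by NRPA1, the largest subunit, with 11.6 ± 0.61 RPKM in dvl1-1D and 16.3 ± 1.1 RPKM in wild type (-0.46 ± 0.06, limma adjusted p 7.75e-05). NRPA2, the second largest subunit, had -0.33 ± 0.06 (adjusted p 0.00117).

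Of 23 small subunit factors, 22 were lower in dvl1-1D. The smallest adjusted p was that of EMB2762, a homologue of yeast NOC4, with 15.2 ± 0.29 RPKM in dvl1-1D and 22.1 ± 0.87 RPKM in wild type (-0.51 ± 0.05, limma adjusted p 1.41e-05). AT5G14050, which has no symbol in RefSeq, had -0.40 ± 0.04 (adjusted p 1.9e-05), and ENP1, a pre-ribosome export factor in yeast, -0.49 ± 0.05 (adjusted p 2.91e-05). RH36, an RNA helicase, did not pass (-0.18 ± 0.08, adjusted p 0.11). Of 27 large subunit factors, 24 were lower and 1 higher. The MAK16-like AT1G23280 had the smallest adjusted p, with 25.9 ± 0.79 RPKM in dvl1-1D and 36.7 ± 1.24 RPKM in wild type (-0.48 ± 0.05, limma adjusted p 1.22e-05). REIL1, a cytoplasmic maturation factor, was the higher one, with 25.7 ± 0.47 RPKM in dvl1-1D and 22.5 ± 0.98 RPKM in wild type (0.19 ± 0.05, limma adjusted p 0.0167). Of 5 decay and trimming genes, 2 were lower, RRP4, a subunit of the exosome (-0.43 ± 0.07, adjusted p 0.000313), and the helicase MTR4 (-0.13 ± 0.05, adjusted p 0.0492).

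Against 35S:DVL8, dvl1-1D was lower at 61 of the 75 genes, where 13.8% of all tested genes were lower, and higher at REIL1. In 35S:DVL8 against wild type none of the 75 passed by limma, as 0.138% of all tested genes did, none had an unadjusted p under 0.05 where 10.5% of all tested genes did, and voom on recovered reads called none. In the dvl1 quintuple against wild type none passed by limma, as 0.0297% of all tested genes did, or by voom, and 23 had an unadjusted p under 0.05, all of them higher, where 7.75% of all tested genes had one in either direction. The rtfl9 quintuple had 3 higher, AT3G23620, NMD3 and PRH75, where 0.321% of all tested genes were higher. AT3G23620, a Brix domain protein, averaged 65.8 ± 2.66 RPKM in the rtfl9 quintuple and 56.4 ± 1.48 RPKM in wild type (0.22 ± 0.04, limma adjusted p 0.0281). NMD3, an export adaptor of the large subunit, had 0.17 ± 0.04, and PRH75, a nucleolar RNA helicase, 0.15 ± 0.03 (adjusted p 0.0481 each). In that comparison 51 of the 75 had an unadjusted p under 0.05, all higher, against 15.8% of all tested genes in either direction. With any 1 library of either group left out, 0 or 1 of the 75 passed. In the dvl1 quintuple against the rtfl9 quintuple none of the 75 passed by limma, as 0.0148% of all tested genes did, and 7 had an unadjusted p under 0.05, all lower, where 4.39% of all tested genes had one.

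**Figure D4:**
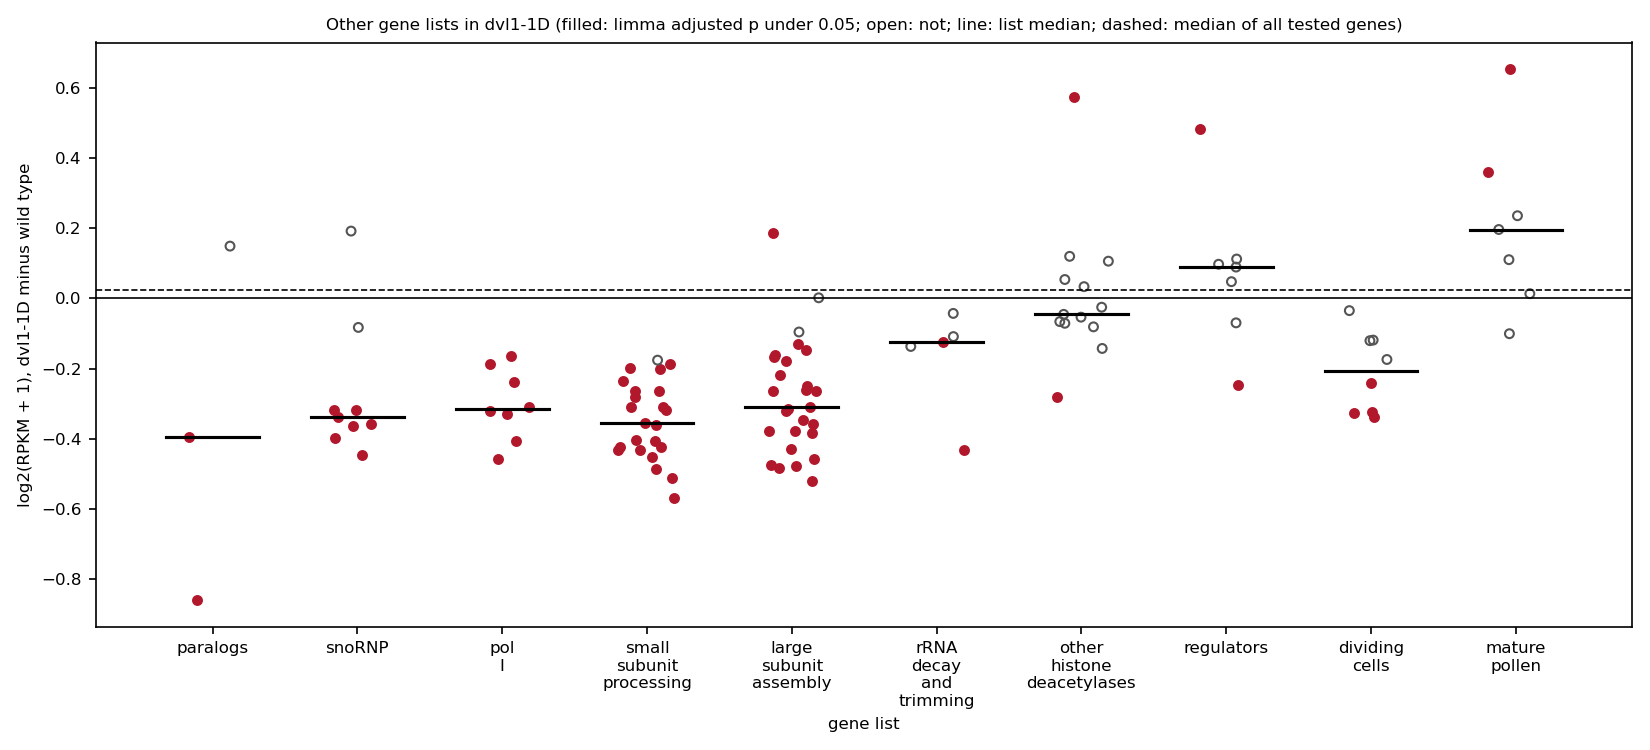
Difference between dvl1-1D and wild type in log2(RPKM + 1) for each tested gene of 10 lists (horizontal axis); filled points passed limma at an adjusted p of 0.05, open points did not, bars are list medians and the dashed line is the median of all tested genes. All polymerase I points are filled and below 0, and the histone deacetylases outside the HD2 family scatter around 0.

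Of 13 tested histone deacetylases outside the HD2 family, 1 was lower and 1 higher in dvl1-1D. Over all tested genes 14.0% were lower and 16.7% higher, so nothing is read from these counts. HDA14 was lower in dvl1-1D with 14.3 ± 0.59 RPKM, against 17.6 ± 0.78 RPKM in wild type (-0.28 ± 0.06, limma adjusted p 0.00185). HDA18 was higher with 3.99 ± 0.35 RPKM, against 2.35 ± 0.20 RPKM in wild type (0.57 ± 0.08, limma adjusted p 0.000163). The other 11 did not pass, among them HDA6, which also acts on ribosomal RNA genes, with 22.3 ± 0.65 RPKM in dvl1-1D and 21.4 ± 0.94 RPKM in wild type (0.05 ± 0.04, adjusted p 0.386). Among 7 tested growth regulators of ribosome production, the kinase genes S6K1 and S6K2, targets of the growth kinase TOR, passed in opposite directions. With 1 lower and 1 higher, this list too was near the shares of all tested genes. S6K1 averaged 43.0 ± 1.79 RPKM in dvl1-1D and 51.2 ± 1.24 RPKM in wild type (-0.25 ± 0.04, limma adjusted p 0.000564). S6K2 averaged 10.2 ± 0.20 RPKM in dvl1-1D and 6.99 ± 0.26 RPKM in wild type (0.48 ± 0.10, limma adjusted p 0.00345). The gene for TOR itself did not pass (0.11 ± 0.05, adjusted p 0.118).

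Genes outside these lists were grouped by the same promoter letters, leaving out the 10 genes and the 76. Ribosomal protein genes and other genes of ribosome production on none of the lists were kept in. Their part in the shares below was not tested. Of 441 tested genes with both a telo box and a site II element, 31.7% were lower and 5.44% higher in dvl1-1D than in wild type. The shares were 24.6% lower and 8.86% higher for 598 genes with only the telo box, 15.9% lower and 13.6% higher for 4438 genes with only site II, and 12.2% lower and 18.9% higher for 13891 genes with neither. The median log2 difference was -0.10 with both and 0.04 with neither. With median-of-ratios scaling the lower share was 37.0% with both and 15.0% with neither, and with quantile normalization 32.4% and 15.2%. The higher share with neither was then 15.4% and 15.6%, about level with the lower share, and with both it was 3.4% and 3.17%. The median with neither was 0.013 with median-of-ratios scaling and 0.0065 with quantile normalization, and the median with both -0.13 and -0.10. HDA3 and HD2B, with neither element in the window, fell by 0.74 and 0.47 in log2, while HDT3, with 3 site II elements, fell by 0.17. The drops of the 6 genes with both elements lay between those of HDT3 and HDA3, and FIB2, with a telo box only, fell by 0.74. All 10 were chosen with their values in view, so no relation to the elements is read from them.

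**Figure D5:**
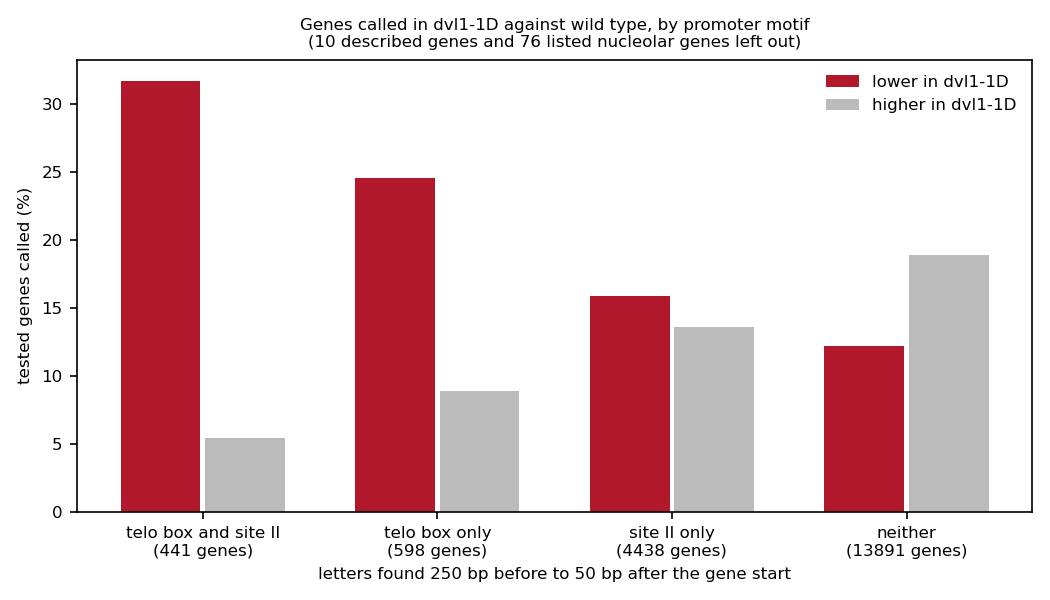
Share of tested genes called lower (red) and higher (grey) in dvl1-1D against wild type, in percent, by which letters lie around the gene start; the 10 described and the 76 listed genes are left out. The lower share is 31.7% with both elements and 12.2% with neither, and the higher share 5.44% and 18.9%.

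Among 10828 tested genes with a mean of at least 10 RPKM, the 5 whose differences from wild type over the 15 libraries were closest to the mean of the 10 genes were OLI2, EMB2762, PMH1, PHIP1 and PUR5. The root mean square distance in log2 was 0.0370 for OLI2 and 0.0495 for PUR5, against 0.0364 for NOP58 and 0.161 for HDT3, which are part of that mean. OLI2, named for its effect on leaf cell number, averaged 30.3 ± 0.66 RPKM in dvl1-1D, 49.4 ± 3.87 RPKM in the rtfl9 quintuple and 42.8 ± 2.47 RPKM in wild type. PMH1, an RNA helicase, averaged 23.8 ± 0.99 RPKM in dvl1-1D, 40.5 ± 2.13 RPKM in the rtfl9 quintuple and 34.3 ± 1.55 RPKM in wild type. EMB2762 is in the small subunit list above, and PUR5 encodes an enzyme of purine synthesis.

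Markers of cell types that an inflorescence holds were read in the same fit, where 14.0% of all tested genes were lower and 16.7% higher in dvl1-1D. The lists hold 8 or fewer tested genes, so a count of 1 or 2 is not read as a change of the cell type. Of 8 green tissue markers 1, LHCB2.1, was higher in dvl1-1D and none lower, and their sums overlapped wild type. Of 8 markers of dividing cells 4 were lower (limma, adjusted p under 0.05) and none higher, with none at 0, and their summed level was 134 to 143 RPKM in dvl1-1D, against 155 to 168 RPKM in wild type. The 4 were CYCB1;1, CYCB1;4, CDKB2;1 and EB1C, with log2 differences between -0.34 and -0.24. All 8 together summed to 164 to 186 RPKM in the rtfl9 quintuple. Of 6 tested markers of meristems and young flowers, STM and CLV1 were higher in dvl1-1D and none lower, with sums of 157 to 172 RPKM in dvl1-1D and 145 to 156 RPKM in wild type. Of 7 tested markers of mature pollen, TIP1;3 and PPME1 were higher in dvl1-1D and none lower. The 9 pollen markers, none at 0, summed to 705 to 955 RPKM in dvl1-1D, 414 to 594 RPKM in 35S:DVL8, 504 to 602 RPKM in the dvl1 quintuple and 461 to 515 RPKM in the rtfl9 quintuple, against 647 to 710 RPKM in wild type. Of 7 tested tapetum markers 1 was higher in dvl1-1D, about the share of all tested genes, and none lower. That gene was GRP17, a pollen coat protein gene, with 768 ± 83.6 RPKM in dvl1-1D and 455 ± 42.2 RPKM in wild type. The 8 tapetum markers, none at 0, summed to 827 to 1027 RPKM in dvl1-1D, 713 to 872 RPKM in 35S:DVL8, 670.1 to 745 RPKM in the dvl1 quintuple and 651 to 768 RPKM in the rtfl9 quintuple, against 611 to 700.3 RPKM in wild type. The dvl1-1D sums overlapped wild type for pollen and were above it without overlap for the tapetum, where GRP17 made up most of the sum. Of the 7 tested tapetum markers 5 had negative log2 differences in dvl1-1D, with a list median of -0.08, so the list as a whole did not rise. The part of these cell types in the levels of the 10 genes was not tested.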

How the data were processed

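RNA was sequenced as read pairs on an Illumina NovaSeq from column-purified, DNase-treated RNA, per the labels' protocols, which also mention flowers after anthesis. The deposited values are RPKM per gene from the authors. Per the submitters' processing notes the tools included cutadapt, HISAT2 and HTSeq, and per the deposited table's name the counting was unstranded. No build is named in the sources used here. Whole reads were recovered from the RPKM within 0.005 of a read for 29911 of 29911 genes (100%). The TAIR10.1 gene length gave this fit for 73.5% of these genes. For the rest a length that fitted was searched for, so their fit is not a check of the counts. Of 37336 identifiers, 37051 matched the TAIR10.1 annotation.

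All 15 libraries entered a single limma fit (3.58.1, R 4.3.3) of log2(RPKM + 1), with the prior variance following mean level. The added 1 understates changes of low genes. The 20223 genes reaching 1 RPKM in 3 or more libraries were tested with 10 residual degrees of freedom. The two-sided p-values took a Benjamini-Hochberg adjustment over all of them, with a threshold of 0.05. On simulated data for dvl1-1D against wild type over 20223 genes, 81 of 100 genes changed 1.5-fold and 92 of 100 changed 2-fold were recovered. Each run had 13 false calls, a larger share of its calls than the threshold of 0.05. Only 100 genes were changed per run, far fewer than were called in the data, and changes under 1.5-fold were not simulated. The members and lists were chosen with earlier results of these data known. Named list genes were up to 3 per direction with the smallest adjusted p in each list. RH36, HDA6, TOR, NUC2, FIB3 and EB1C fall outside that rule and were named after their values were seen. The grouping of all genes by promoter letters was also chosen after seeing the data. Alternatives changed the pseudocount, filter, scaling, sample weights, groups in the fit, a replicate block, test (limma-voom on recovered reads) and libraries kept.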

Additional observations from a re-analysis of the deposited data

How the results depend on the processing

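Over 15 alternatives per comparison, the 10 genes kept their sign in all 150 values for dvl1-1D, for the dvl1 quintuple and for the rtfl9 quintuple against wild type, and in 138 of 150 for 35S:DVL8, whose differences are near 0. These values reuse the same chosen genes and libraries, so a kept sign is not independent support. All 10 passed limma in every dvl1-1D alternative, and 0 to 8 in those of the rtfl9 quintuple. None passed in any alternative for 35S:DVL8 or the dvl1 quintuple. The count of ribosome production genes called in dvl1-1D against wild type was 66, and 55 to 69 over the alternatives. The number of genes called in dvl1-1D against wild type was 6219 (4802 to 7257), of which 54.4% were higher, but 43.9% with median-of-ratios scaling and 44.3% with quantile normalization; against 35S:DVL8 these shares were 57.3%, 44.8% and 44.1%. Other counts moved more, and the cause was not tested. For 35S:DVL8 against wild type 28 genes were called, 306 with sample weights, 240 with voom, 49 with 2 doubted libraries left out (rtfl9 quintuple replicate 4 and 35S:DVL8 replicate 2), and 7 to 289 without 1 library. For the dvl1 quintuple 6 were called, 12 with no filter, 18 with sample weights, and 152 both with only the groups compared and without those 2 libraries. For the rtfl9 quintuple 249 were called, 57 with no filter, 668 with sample weights and 8 to 78 without 1 library. Between the mutants 3 were called, 5 with quantile normalization or sample weights, 0 with only the groups compared, 1 without those 2 libraries and 1 to 6 without 1 library. The 3 ribosome production genes called in the rtfl9 quintuple became 1 with no filter, 5 with quantile normalization, 22 with sample weights, 8 with voom, 0 with only the groups compared and 0 to 1 without 1 library. With the replicate number as a block, 13 genes were called in 35S:DVL8, 9 in the rtfl9 quintuple, 1 between the mutants and 0 of the 3 ribosome production genes. Over 23 pairs of same-numbered libraries the correlation of deviations was -0.255 to 0.381, and only 3 were over 0.1. The highest was between replicate 4 of the dvl1 quintuple and replicate 4 of the rtfl9 quintuple. Differently numbered pairs are not given for reference, so this check cannot decide whether the numbers paired the samples. The authors' removal of 1 library per group can narrow the spread.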
